A study of Mus musculus with 10 samples.

Results

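The cells described here are the spermatogonia (SpG) of the library labelled Nfya-CKO, the population that the authors' cell tables name as undifferentiated SpG of the mutant. They were taken by that name in both assays, which gave 491 of the 45250 scRNA-seq cells and 2923 of the 343866 scATAC-seq cells. Values pooled under that name are a column of their own in both deposited gene matrices. They were set beside the columns of the 9 control germ cell populations and of the somatic cells that the authors name apart from Sertoli cells. The column of these somatic cells is called the somatic column here. In scRNA-seq 4633 of its 5883 cells (78.8%) were of the Nfya-CKO library, so it is mostly a column of the mutant testis. The scATAC-seq matrix also has columns of control populations that the paper names from RNA only, such as differentiating spermatogonia. Whether its mutant column pools the 2923 cells or those named from RNA is not given in the sources used here. The mutant is Nfya fl/fl; Stra8-Cre on a C57BL/6J background, in which Cre, made from the Stra8 locus in pre-meiotic germ cells, deletes exons 5 to 6 of Nfya. Its control at the same age of 8 weeks is Cre/+, mice that carry the Cre as the control for it. The other controls are wild-type testes at 11, 17 and 25 dpp, so Cre is shared by both 8-week-old groups and is in no juvenile group. Nuclei of whole testes were read for RNA and accessible chromatin with the BD Rhapsody system, with 1 library per condition and assay and 10 libraries in all. No difference below therefore has a replicate check, and none was given a p-value.

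NF-Y is a trimer of NFYA, NFYB and NFYC, and NFYA is the subunit that reads the CCAAT sequence found just upstream of many transcription start sites, among them those of many cell cycle genes. Undifferentiated SpG hold the stem cells of the testis and divide by mitosis. On retinoic acid they become differentiating SpG, then enter meiosis as preleptotene spermatocytes (pL), and pass through leptotene, zygotene, pachytene (P) and diplotene (D) to round (RS) and elongating spermatids (ES). The merged control populations are written eL/L/Z, L/Z/eP and mP/lP, where e, m and l stand for early, mid and late.

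Nfya transcripts stood at 1.11 per 10000 UMIs (unique molecular identifiers, each 1 captured transcript) in Nfya-CKO SpG, against 0.456 in control undifferentiated SpG, 0.667 in differentiating SpG and 0.414 in pL. The value was thus the highest of these 4 columns. Whether the deleted exons were among the transcripts cannot be seen in whole-gene values, and every direction below rests on the label of the library. For the mutant the paper reports loss of NFYA protein from germ cells, by western blotting and immunohistochemistry, and an absence of spermatocyte populations.

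Nfya-CKO SpG made up 9.53% of the 5152 scRNA-seq cells of their library (exact Clopper-Pearson 95% interval 8.74 to 10.4%, which covers counting error only) and 19.6% of its 14920 scATAC-seq cells (19.0 to 20.2%). They held 20.9% of the UMIs of the library. Only 9 other cells of it carried a germ cell name. The RNA cluster behind the name held no cell of another library. The scATAC-seq cluster was different. It held 13922 cells, of which 10999 came from controls (1690 in Cre/+, and at 11, 17 and 25 dpp 6140, 3108 and 61 in turn) and were named undifferentiated SpG. In scATAC-seq the names of mutant and control SpG therefore differed by library alone. Cells named from RNA in the controls entered this cluster at different rates, with 918 of 1230 undifferentiated SpG (74.6%), 634 of 1721 pL (36.8%), 145 of 760 differentiating SpG and 360 of 3886 eL/L/Z (9.26%). Of the 491 Nfya-CKO SpG, 470 were found among the scATAC-seq cells, and 453 of these (96.4%) had the same name there. The next most common name among them was Sertoli cell, with 14 cells. In the other direction, 466 of the 2923 scATAC-seq cells (15.9%) had an RNA name, which was the same for 453. The 2457 without an RNA name had a median of 16194 fragments, against 32543 in the 470 named from RNA.

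The Nfya-CKO SpG were deep in RNA. Their median was 18361 UMIs and 4915 genes per cell (lowest 3919 and highest 62440 UMIs), against 9290 UMIs in control undifferentiated SpG, 6188 in differentiating SpG and 8161 in pL. With 9778830 UMIs in all, a value of 0.01 on the scale used here stands for about 9.78 UMIs. In scATAC-seq they were of lower quality than the controls of their own cluster. The median TSS enrichment, the coverage at start sites over that of flanking windows, was 7.02 against 11.5 in all control cells and 12 in those of Cre/+. The median share of reads in promoters was 12.4% against 18.6% and 18.3%, and the nucleosome ratio 0.877 against 0.592 and 0.478. The other cells of the Nfya-CKO library, nearly all somatic, had medians of 5.79, 11.5% and 0.839. A TSS enrichment under 4 was found in 183 of the 2923 Nfya-CKO SpG (6.26%) and 1908 of the 11997 other cells of the library, down to 2.18 in the SpG, whereas the control cells of the cluster began at 4.05. The limit of 4 stated for the study was thus not met by these cells, and population, genotype and filter cannot be told apart in these medians.

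The RNA libraries of the 8-week-old mice shared barcodes, and this touched the control populations. The Nfya-CKO and Cre/+ libraries had 3813 barcodes in common. In 1157 of them the Cre/+ entry held under 25% of the UMIs of the Nfya-CKO entry, with a median ratio of 0.105, in 2652 the reverse was true, with a median ratio of 0.0777, and in 4 the entries were within 4-fold. Of the 491 Nfya-CKO SpG barcodes, 175 (35.6%) were also cells of Cre/+. There they held a median of 2275 UMIs against 21471, and the ratio ran from 8.13 to 16.6%. Of these 175, 168 were in the Nfya-CKO scATAC-seq library and 16 in that of Cre/+. In Cre/+ 143 of them were named differentiating SpG, 31 D and 1 RS. Hence 143 of the 927 control differentiating SpG (15.4%) carried a barcode of an Nfya-CKO SpG at a lower depth. Among control undifferentiated SpG this held for 0 of 1292 cells, and among pL for 0 of 1761. The juvenile libraries shared 621 to 853 barcodes in each pair, and 1235 of the 5705 eL/L/Z cells (21.6%) were smaller entries of a barcode of another library, none of them from the Nfya-CKO library. ES were touched through other barcodes, with 675 of 1195 cells (56.5%) that were the smaller entry of an Nfya-CKO barcode. None of the 491 Nfya-CKO SpG was a smaller entry, whereas 2652 of the 5152 cells of their library were, 2646 of them named somatic. Without these the SpG made up 19.6% of 2500 cells (18.1 to 21.3%). The somatic column was mixed. It held Sertoli transcripts, with 7 of the 21 genes of the Sertoli list higher than in the column named Sertoli (Clu at 91.5 against 34.1 per 10000) and 14 lower (Sox9 at 3.54 against 10.7), and germ cell transcripts (Ybx2 at 5.73, Ldhc at 2.68). Of its 5883 cells 3039 (51.7%) were smaller entries of a barcode of another library. What the barcodes shared with the controls brought to it was not tested. Because of the shared barcodes undifferentiated SpG and pL serve as the main controls, and values against differentiating SpG are given with this limit.

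**Figure D1:**
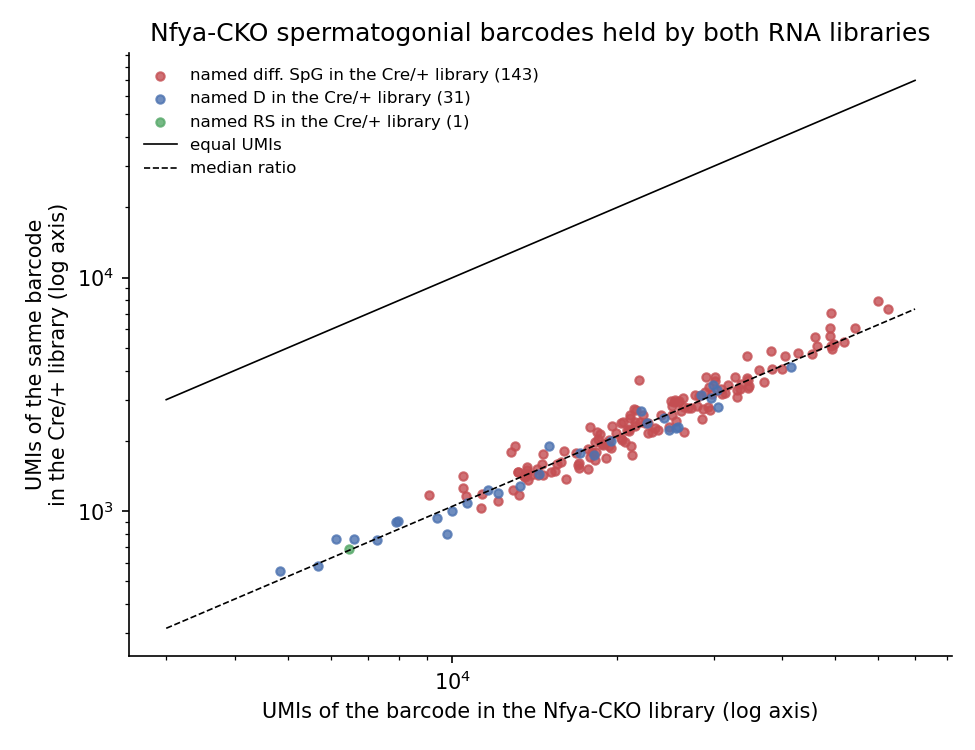
UMIs of the 175 Nfya-CKO SpG barcodes in their own RNA library (x axis, log scale) and in the Cre/+ library (y axis, log scale), coloured by the name each barcode has in Cre/+. The points follow the dashed line of the median ratio, 10.5%, far under the solid line of equal UMIs.

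The control undifferentiated SpG were mostly juvenile. Of the 1292 RNA cells 646 were of age 11 dpp, 262 of 17 dpp and 280 of 25 dpp, with 102 of Cre/+ and 2 with no library named, while 783 of the 927 differentiating SpG came from Cre/+. A difference from undifferentiated SpG is thus also one of age, and genotype and age cannot be told apart in it.

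The 4 markers that define this population were all present. Gfra1, the co-receptor for the niche factor GDNF, was 1.20 per 10000 in Nfya-CKO SpG, 1.08 in undifferentiated SpG, 0.198 in differentiating SpG and 0.0356 in pL. Zbtb16, a transcription factor that maintains SpG, was 4.15, 8.74, 1.20 and 1.15 in the same columns. In both, Nfya-CKO SpG were above differentiating SpG and pL. The cells were named with such markers, so these levels describe them and do not test the name. Uchl1, a ubiquitin hydrolase abundant in SpG, was 11.0, 5.88, 4.79 and 3.46. Crabp1, which binds retinoic acid in the cytoplasm, was 3.33, 0.794, 1.43 and 1.57. Uchl1, Crabp1 and Gfra1 were higher in Nfya-CKO SpG than in any of the 9 control germ columns. Over all genes tested, 22.6% were above all 9 columns by any amount.

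Across 15056 genes (those averaging 0.05 per 10000 or more), the RNA profile of Nfya-CKO SpG was closest to undifferentiated SpG (Spearman's rho 0.912), followed by pL (0.879), eL/L/Z (0.846) and differentiating SpG (0.793). It was 0.651 with L/Z/eP and 0.535 with mP/lP, and lowest with RS (0.273). The lead over pL was small, since the control undifferentiated SpG and pL columns themselves had a rho of 0.915. Over the 2000 most variable genes the order turned, with pL at 0.873 and undifferentiated SpG at 0.858. Without the share of shared barcodes, an estimate since the columns are pooled, rho with differentiating SpG was lower still (0.715). In scATAC-seq, over 28005 genes, the order of the nearest populations was the same, with 0.966 for undifferentiated SpG, 0.935 for pL, 0.923 for eL/L/Z and 0.911 for differentiating SpG. In the scATAC-seq cell names, mutant and control undifferentiated SpG are a single cluster split by library. If the columns follow these names, the naming itself sets undifferentiated SpG first, so the scATAC-seq order is no separate check of the RNA order. These values describe pooled columns, and genes are not independent replicates.

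**Figure D2:**
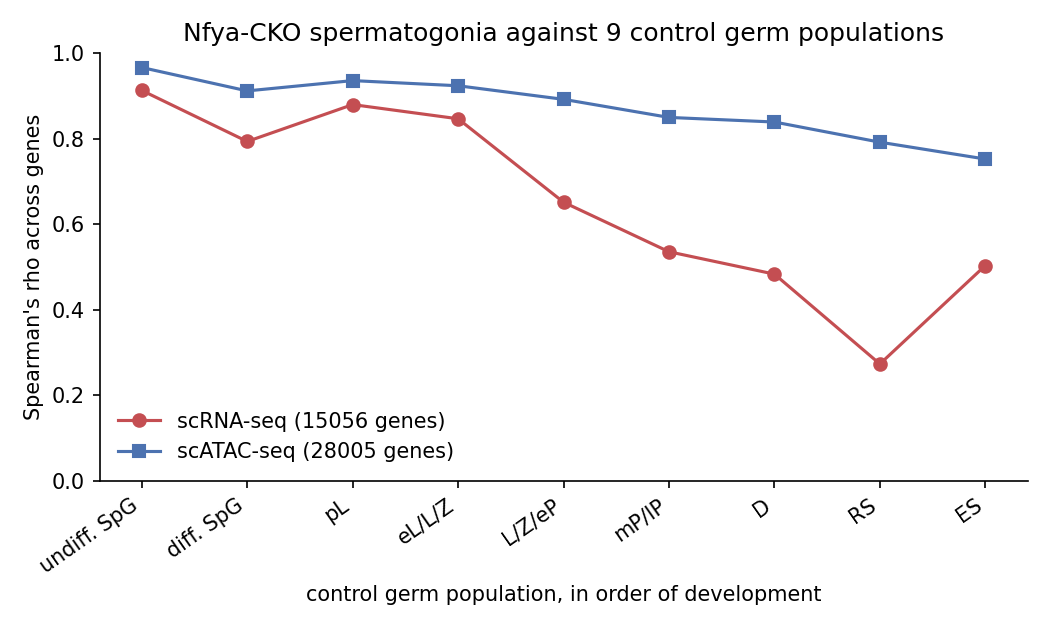
Spearman's rho between Nfya-CKO SpG and each of the 9 control germ populations (x axis, in order of development) over 15056 genes in scRNA-seq and 28005 in scATAC-seq. Undifferentiated SpG come first in both assays, at 0.912 and 0.966, and differentiating SpG lie below pL in both. Mutant and control undifferentiated SpG share a scATAC-seq cluster, so the first place in that assay may follow from the naming.

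Genes that mark a single control stage were read next. Stage genes were those at least 2-fold above every other control germ column, at 0.5 per 10000 or more, with at most 100 kept per stage. The 100 genes of undifferentiated SpG had a median of 1.29 in their own column, 0.159 in differentiating SpG and 0.128 in pL, and 0.730 in Nfya-CKO SpG. In 72 of the 100 the value in Nfya-CKO SpG was over 50% of that of undifferentiated SpG, and in 28 it was at least 2-fold lower. Foxf1, a forkhead transcription factor, was 0.842 against 2.81, and Egr4, a zinc finger factor of the early growth response family, 1.45 against 4.16. Ret, the receptor kinase for GDNF, was 1.36 against 2.30, and Glis3, a zinc finger factor, 3.76 against 5.38. The choice of these genes fixes that undifferentiated SpG are above the later columns, and it favours values below them in any other profile. The 16 genes of mP/lP had a median of 0.0135 in Nfya-CKO SpG against 5.15 in mP/lP and 0.201 in undifferentiated SpG, and the 100 genes of RS a median of 0.0237 against 0.0603 in undifferentiated SpG. The D and ES genes went the other way. All 9 D genes were at least 2-fold higher than in undifferentiated SpG, with a median of 0.449 against 0.0732, and 2.34 in the somatic column. All 9 were Ugt1a genes with close values, from 0.390 to 0.450 in Nfya-CKO SpG. They may share reads and are better read as a single signal than as separate genes. Of the 100 ES genes 36 were at least 2-fold higher and 3 lower, with a median of 0.261 against 0.0896, and 0.730 in the somatic column. Among all genes tested, 4.76% were higher and 3.4% lower. Most ES cells were smaller entries of an Nfya-CKO barcode, as given above. Beside spermatid genes such as Tnp1 and Tnp2, the ES genes held Star, of the Leydig list described below. It was 0.905 in ES, 1.03 in Nfya-CKO SpG and 4.18 in the somatic column. Only 3 genes marked pL by this rule. Ptma, which encodes the small acidic nuclear protein prothymosin alpha, was 31.8 in pL, 14.5 in undifferentiated SpG and 0.826 in Nfya-CKO SpG. Ptma has many near-identical pseudogenes, which makes its count uncertain.

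Nfya-CKO SpG also held transcripts of Leydig cells, the testosterone-making cells between the tubules. Of 11 genes of the Leydig list that were tested against undifferentiated SpG, 9 were at least 2-fold higher and none lower. Over all 13954 genes tested, 4.76% were at least 2-fold higher (664 genes) and 3.4% lower (475 genes). Insl3, a Leydig hormone, was 39.8 per 10000 in Nfya-CKO SpG, 0.0640 in undifferentiated SpG, 0.893 in differentiating SpG and 177 in the somatic cells. It overlaps Jak3, whose value was also 39.8 in Nfya-CKO SpG, and the pair may share reads. Cyp17a1, a steroid hydroxylase, was 7.39 in Nfya-CKO SpG and 31.2 in the somatic cells, Ptgds, a prostaglandin synthase, 11.8 and 52.3, and Hsd3b6, a steroid dehydrogenase, 1.77 and 7.78. All these values stood in nearly the same ratio. Over the 12 genes of the list the ratio of SpG to somatic cells had a median of 0.225 and ran from 0.163 to 0.330.

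A list of 51 genes that were at least 10-fold above every control germ column in the somatic cells gave a median ratio of 0.20, with quartiles of 0.0756 and 0.225. Their summed level was 124 per 10000 in Nfya-CKO SpG, 589 in the somatic cells, 2.27 in undifferentiated SpG, 4.92 in differentiating SpG and 1.93 in pL. Insl3 and Jak3, which may share reads, both enter these sums. They were at 39.8 each in Nfya-CKO SpG, and at 177 and 178 in the somatic cells. Genes of the peritubular and stromal list stood apart, with a median ratio of 0.0583. Col1a2, a fibrillar collagen, was 0.112 in Nfya-CKO SpG, 0.111 in undifferentiated SpG and 8.96 in the somatic cells, and Acta2, smooth muscle actin, 0.0955, 0.0846 and 3.10. Of 7 stromal genes tested 1 was at least 2-fold higher than in undifferentiated SpG and none lower. That gene was Dcn, a matrix proteoglycan, at 0.177 against 0.0288, while Col1a1, the partner chain of Col1a2, was 1.51 against 3.03. Of 17 Sertoli genes tested 7 were at least 2-fold higher and none lower, with Clu, a secreted chaperone, at 22.8 in Nfya-CKO SpG, 2.50 in undifferentiated SpG and 91.5 in the somatic cells. In the control ES column, where most cells were smaller barcode entries, Clu was 31.3 and Insl3 3.81. Whether these transcripts were in the SpG nuclei or came from free RNA was not tested.

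**Figure D3:**
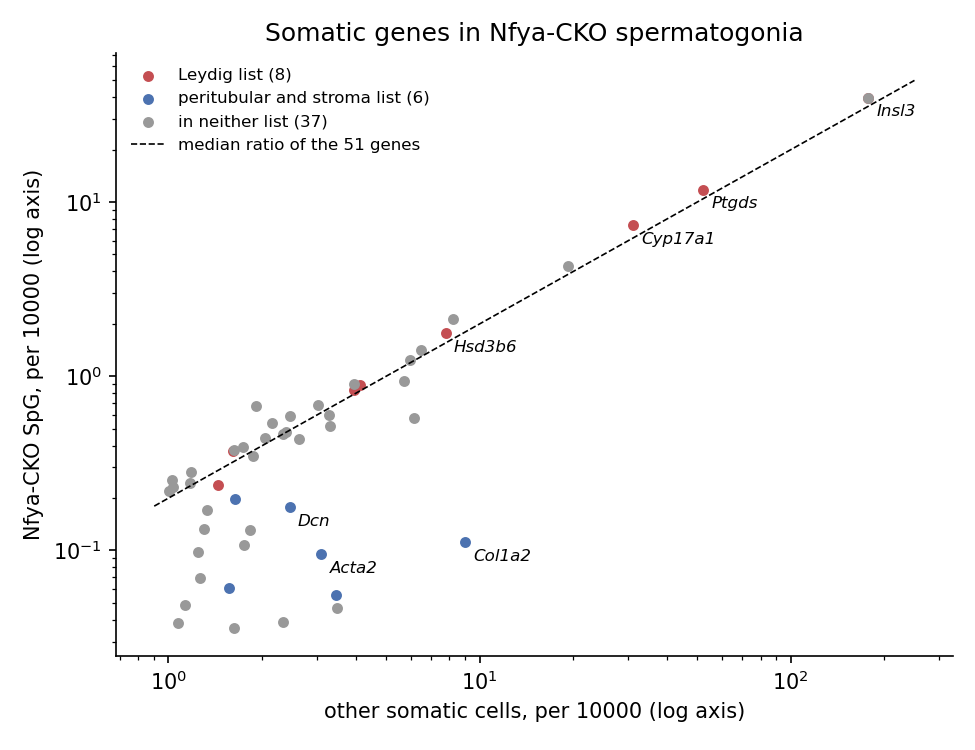
Level of 51 somatic genes in Nfya-CKO SpG (y axis) against the somatic column (x axis), both per 10000 on log axes. The dashed line is the median ratio, 0.20. Of the 51 genes 15 lie at under 50% of it, 5 of them stromal.

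Genes higher than in control SpG were often somatic. Among the 664 genes at least 2-fold higher, 399 (60.1%) had a somatic column above every control germ column, against 25.2% of all genes tested. In 341 (51.4%) the somatic column was above Nfya-CKO SpG themselves, against 39.7% of all genes. Subtracting 0.20 of the somatic column, with the germ cell transcripts it holds, from each gene lowered the 664 to 294 and raised the 475 to 1411, and moved the median of all genes from 0.04 to -0.21 on the log2 scale. The subtraction turned the median of the Sertoli list from 0.83 to -0.93 and of the stromal list from 0.08 to -0.88, and left that of the Leydig list at 0.40, from 2.77. The medians of the lists of germ cell and cell cycle genes below were negative before it. A subtraction can only lower them, so that they stayed negative was fixed in advance. The median of the p53 list could have turned and stayed positive, at 0.45 from 0.55. Among the 475 lower genes, 196 (41.3%) were highest in undifferentiated SpG among the control germ columns, 119 (25.1%) in mP/lP and 80 (16.8%) in pL, against 24.2, 10.8 and 19.6% of all genes tested. A gene lower than undifferentiated SpG is more likely to be highest there by the choice itself.

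Of the 39 genes of the stem and undifferentiated list, none was at least 2-fold higher than in undifferentiated SpG and 8 were at least 2-fold lower, with a median log2 difference of -0.26 (0.04 over all genes). Among all genes, 4.76% were higher and 3.4% lower. Beside Zbtb16, given above, the lower genes are transcription factors, a signalling gene and a piRNA gene of SpG. Sox3 was 1.54 per 10000 in Nfya-CKO SpG, 6.17 in undifferentiated SpG, 2.04 in differentiating SpG and 3.31 in pL. It was the lowest of the 4 columns, unlike the others of the group. Sall4 was 2.08 against 4.88 in undifferentiated SpG, Sall1 0.237 against 1.01, Foxo1 2.62 against 5.35, and Dusp6, a phosphatase of the ERK pathway, 0.383 against 1.01. Piwil4, a PIWI protein of the piRNA pathway, was 0.347 against 0.867, and Id4, a helix-loop-helix inhibitor linked to stem cell state, 0.290 against 0.682. All of these but Id4 and Sox3 were above differentiating SpG. Against differentiating SpG, 21 of 36 genes of the list were at least 2-fold higher and 1 lower, with a median of 1.16, where 7.44% of all genes were higher and 10.9% lower. Zbtb16, Gfra1 and Uchl1, markers of this population given above, are among those higher. The cells were named with such markers, so this count describes them and does not test the name. Etv5, a target of GDNF signalling, was 1.11 against 0.760 in undifferentiated and 0.129 in differentiating SpG.

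Genes of differentiating SpG had a median close to the level of undifferentiated SpG, and single members lay lower. Of 18 genes, 1 was at least 2-fold higher than in undifferentiated SpG (Crabp1) and 3 were lower (Stra8, Ccnd2 and Prss50), with a median of -0.05. Among all genes, 4.76% were higher and 3.4% lower. Kit, the receptor for stem cell factor, was 1.08 per 10000 in Nfya-CKO SpG, 0.548 in undifferentiated SpG, 1.56 in differentiating SpG and 2.09 in pL, which placed it between the first control stage and the next. Dmrtb1, a transcription factor of the switch from SpG to meiosis, was 0.173, 0.133, 1.04 and 1.02 in that order. Stra8, the retinoic acid target that starts the meiotic program, was 0.969, 2.05, 2.58 and 4.86, the lowest of the 4 columns. Cre was inserted in the Stra8 locus, and 92.0% of the control undifferentiated SpG came from wild-type juveniles without it. Ccnd2, a D-type cyclin of dividing SpG, was 4.67, 10.8, 0.579 and 1.24. Prss50, a testis protease, was 0.0425, 0.599, 3.79 and 4.16.

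Genes of meiotic entry and the chromosome axis were as a group near the level of undifferentiated SpG. Of 36 genes tested none was at least 2-fold higher than in undifferentiated SpG and 3 were lower, with a median of -0.02. Among all genes, 4.76% were higher and 3.4% lower. Against differentiating SpG 10 of 36 were lower and none higher, with a median of -0.74, in the column that shares barcodes with Nfya-CKO SpG. Against that column 10.9% of all genes were lower and 7.44% higher. Meioc, which with YTHDC2 keeps meiotic entry going, was 0.0513 per 10000 in Nfya-CKO SpG, 0.409 in undifferentiated SpG, 2.24 in differentiating SpG and 2.37 in pL. The level in Nfya-CKO SpG was below all 9 control germ columns. The somatic column, which also holds germ cell transcripts, was at 0.628. In this list 9 of 36 genes were below all 9 columns by any amount, where 8.23% of all genes were. Prdm9, the methyltransferase that places recombination hotspots, was 0.0513, 0.122, 0.618 and 0.974 in the same 4 columns. Rec8, the meiotic cohesin, was 0.0740, 0.141, 0.457 and 0.298, and Tex101, a surface protein of germ cells, 0.469, 1.17, 3.03 and 2.11. Sycp3, of the chromosome axis, was 1.15, 0.673, 2.21 and 1.20, and Tex15, a factor of germ cell silencing and recombination, 14.7, 11.0, 15.1 and 16.8. The list thus held members under every control stage beside members at the level of pL.

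The lists of pachytene and spermatid genes were low. Of 19 pachytene genes tested, 8 were at least 2-fold lower than in undifferentiated SpG and none higher, with a median of -0.82, and 14 were below all 9 control germ columns by any amount. Among all genes, 3.4% were at least 2-fold lower and 8.23% below all 9 columns. Ybx2, an RNA-binding protein that stores transcripts, was 0.501 per 10000 in Nfya-CKO SpG, 2.44 in undifferentiated SpG, 10.6 in differentiating SpG and 2.19 in pL. Ldhc, the germ cell lactate dehydrogenase, was 0.0492, 0.579, 3.44 and 0.113, and Hspa2, a heat shock protein of spermatocytes, 0.0643, 0.547, 1.95 and 0.485. Of 12 spermatid genes tested 5 were lower and none higher. Genes were tested if the mean of both columns passed the limit, and these 5 passed it through undifferentiated SpG alone. The same holds for Ldhc and Hspa2. This filter favours the lower direction among low genes, so the counts describe these genes and test nothing. Prm1, which packs sperm DNA, was 0.0171, 0.155, 3.94 and 0.00525. Differentiating SpG, most of them from Cre/+, held the highest value of these 4 columns for each of these genes, and pL a far lower one for Prm1 and Ldhc.

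Cell cycle genes had medians close to the level of undifferentiated SpG, and single members were apart from it, where 4.76% of all genes were at least 2-fold higher and 3.4% lower. Of 24 S phase genes 1 was at least 2-fold higher and none lower (median -0.15), and of 24 G2 and M genes 1 was higher and 3 lower (median -0.04). Those lower were Cks2, at 0.0878 per 10000 against 1.26, 0.289 and 1.11 in undifferentiated SpG, differentiating SpG and pL, Cks1b, at 0.273 against 0.696, 0.702 and 1.04, and Ube2c, at 0.179 against 0.476, 0.438 and 0.662. Cks1b and Cks2 encode small partners of cyclin-dependent kinases, and Ube2c the ubiquitin ligase partner that drives mitotic exit. These 3 genes were below all 3 of these controls. Those higher were Rfc4, a subunit of the clamp loader of replication, at 0.725 against 0.255 in undifferentiated SpG, and Bub1b, a checkpoint kinase, at 0.949 against 0.396. Cenpf, a kinetochore protein, was 17.0 against 9.12, 9.94 and 9.05. Of the G2 and M genes 6 of 24 were below all 9 control germ columns and 5 above them, against 8.23% and 22.6% of all genes.

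Against undifferentiated SpG, genes of the p53 response and cell death showed no member past 2-fold in either direction on values plus 0.1. Among all genes, 4.76% were higher and 3.4% lower. The median of the p53 list was 0.55 above undifferentiated SpG, and 0.45 after the subtraction. Against differentiating SpG 3 of its 17 genes were at least 2-fold higher and none lower, where 7.44% of all genes were higher and 10.9% lower. Of 17 tested 8 were above all 9 control germ columns by any amount, where 22.6% of all genes were. Trp53 itself was 1.76 per 10000 in Nfya-CKO SpG, 0.887 in undifferentiated SpG, 0.781 in differentiating SpG and 0.920 in pL, with 1.08 in the somatic cells. Bax, a promoter of apoptosis, was 2.48, 1.67, 1.26 and 1.91. Sesn2, a stress response gene, was 0.970, 0.460, 0.263 and 0.448, with 0.902 in the somatic cells. Genes of germ cell identity had none of 15 past 2-fold against undifferentiated SpG, with a median of -0.16. Dazl, an RNA-binding protein of germ cells, was 6.80 against 13.2 in undifferentiated SpG and 17.5 in pL, and Ddx4, the germ cell helicase, 2.28 against 3.20 and 2.71. Nfyb was 0.971 against 0.639, and Nfyc 1.43 against 1.17.

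**Figure D4:**
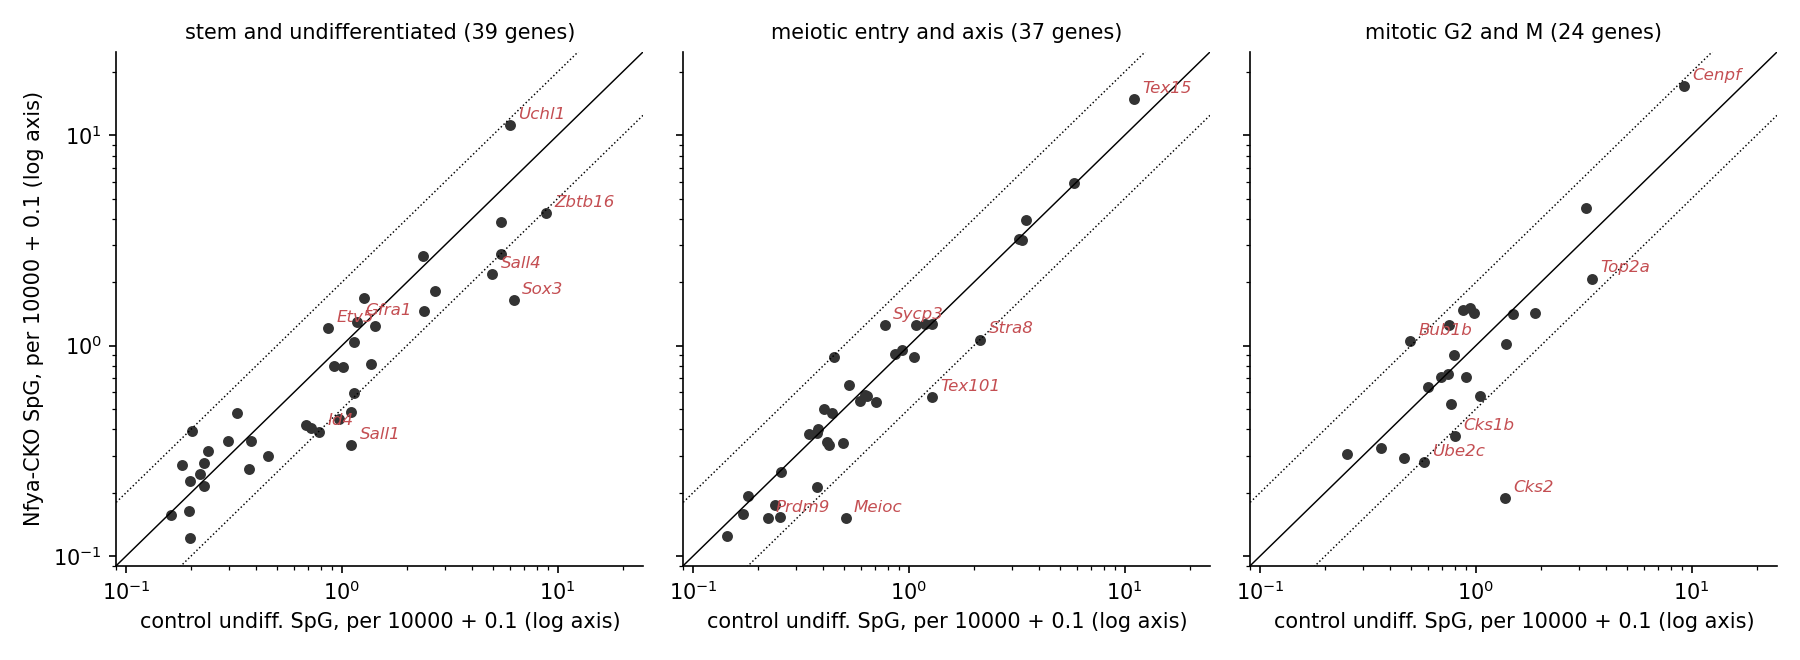
Level of each gene of 3 lists in Nfya-CKO SpG (y axis) against control undifferentiated SpG (x axis), as UMIs per 10000 plus 0.1 on log axes, with solid lines at equality and dotted lines at 2-fold. Of the stem genes, 8 of 39 lie under the lower dotted line, of the meiotic genes 3, among them Meioc, and of the G2 and M genes 3, among them Cks2.

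Genes outside the control germ range were then counted. With a margin of 2-fold, 89 of 15056 genes (0.591%) were above all 9 columns and 22 (0.146%) below all. Each control column set against the other 8 in the same way gave from 0 (eL/L/Z) to 894 (RS) above, with 339 for undifferentiated SpG, and from 0 to 133 (pL) below. Of the 89 genes, 47 were also at least 2-fold over the somatic cells. Among those 47, the genes furthest above were BC053393, at 0.570 per 10000 against 0.0714 in the highest control column, and Cblc, an E3 ubiquitin ligase of the Cbl family, at 1.98 against 0.482 in differentiating SpG and 0.473 in the somatic cells. Dgkg, a diacylglycerol kinase, was 1.24 against 0.380, and Phlda2, an imprinted gene, 0.507 against 0.0970. For 7 of the 10 of them furthest above, the highest control column was differentiating SpG, the column that shares barcodes with Nfya-CKO SpG. Without that column and ES the count above rose from 89 to 184.

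Below the range stood BC051142, at 0.186 against 1.43 in the lowest control column, and Prss50, Ybx2 and Tex101, given above. Ezh2, the methyltransferase that places the repressive mark on histone H3 in Polycomb complexes, was 0.283 per 10000 in Nfya-CKO SpG, 1.08 in undifferentiated SpG, 1.27 in differentiating SpG, 1.67 in pL and 0.769 in the lowest control column. H3f3b, which encodes histone H3.3, was 1.46 against 4.12, 5.47 and 9.89, and its near-identical copies make the count uncertain. The mitochondrial genes mt-Nd2 and mt-Nd5 were 2.21 and 1.10, against 6.01 and 2.85 in their lowest control columns. The median mitochondrial share per cell was 0.354% in Nfya-CKO SpG and 0.530% in the somatic cells of their library, against 0.904% in all control undifferentiated SpG, 1.21% in those of Cre/+ and 0.340% in those of 25 dpp. The low mitochondrial level was thus shared by 1 control library.

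Chromatin accessibility was compared with undifferentiated SpG as the ratio of scATAC-seq values plus 1, where each column sums to 1000000. The study's methods define promoter accessibility by mean coverage around start sites; whether the deposited gene values were made so is not given in the sources used here. Over 19221 genes with a value of at least 5 in either column, the ratio was under 1 for 60.8%, with a median of 0.932, and 1199 genes (6.24%) were at least 1.5-fold higher and 1070 (5.57%) at least 1.5-fold lower. Mitochondrial DNA held 46.0% of the signal in Nfya-CKO SpG and 40.6% in undifferentiated SpG. Scaling without it moved the median log2 ratio of all genes from -0.10 to 0.06, so lists are read against this median. The same scaling gave 2976 higher and 568 lower genes, and a minimum signal of 20 gave 147 and 916, so the balance of higher and lower genes turned with the setting.

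Among the lists with more than 2 genes tested, those of the cell cycle and of meiosis lay furthest under it. The median ratio was 0.733 for the G2 and M list, with 23 of 24 genes under 1 and 6 at least 1.5-fold lower, and 0.802 for the S phase list, with 23 of 24 under 1 and 3 lower. Scaled without mitochondrial DNA the medians on the log2 scale were -0.32 and -0.19, still below that of all genes. The ratio falls with control signal whatever the gene, as given with the CCAAT counts below. In the bin of control signal nearest to the median of each list, genes without CCAAT had a median ratio of 0.872 for G2 and M and 0.848 for S phase. The lower TSS enrichment of Nfya-CKO SpG moves with these values, and its part was not tested. Hmmr, which encodes a spindle protein, was 18.2 in Nfya-CKO SpG and 32.9 in undifferentiated SpG, and Ube2c 21.4 and 38.2. Cenpf was 29.1 and 47.6, although its RNA was higher in Nfya-CKO SpG, and Pcna, the sliding clamp of replication, 26.6 and 47.9. The meiotic list had a median ratio of 0.801, with 9 of 35 genes at least 1.5-fold lower, where the nearest bin had 0.904. Meioc was lowest in Nfya-CKO SpG, at 8.55 against 28.0 in undifferentiated SpG, 64.8 in differentiating SpG, 61.0 in pL and 14.7 in the somatic cells. Tex101 was 1.27 against 7.14, while Stra8 was 29.4 against 28.4. Germ cell identity genes had a median of 0.819, with 4 of 15 at least 1.5-fold lower, and Ddx4 at 23.6 against 33.1.

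Genes of stem and undifferentiated SpG were as a group close to the median of all genes. The median ratio was 0.946, with 26 of 38 under 1, none at least 1.5-fold lower and 1 higher, and the median was 0.05 on the log2 scale without mitochondrial DNA. Genes without CCAAT in the nearest bin of control signal had a median ratio of 0.872, under that of the stem list. Zbtb16 was 69.1 against 62.4, Gfra1 36.2 against 39.7, Crabp1 38.0 against 32.9, Uchl1 51 against 52.2 and Lin28a 41.1 against 41.1. Zbtb16, whose RNA was 2-fold lower, thus had no lower signal. Those lowest against undifferentiated SpG included Id4, at 32.1 against 47.9, and Sox3, at 29.0 against 38.3. The Nfya gene itself was 58.7 against 83.1, and Nfyb 34.9 against 52.5.

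Promoter sequences were then read for CCAAT on both strands, that is as CCAAT or ATTGG, in windows of 300 bases from 250 before to 50 after each start site in RefSeq for GRCm38.p6, the build also called mm10. Overlapping matches were counted. Of all 32851 windows 37.4% held at least 1 and 11.7% at least 2. The 4 windows below were chosen by their ratio to show the sequence read, and are not evidence of a relation: 3 genes of the lists with the lowest scATAC-seq ratio among those with at least 2 matches and a control signal above the median, which leaves out the weak Tex101, and Lin28a, an RNA-binding protein of SpG, as a gene without a match whose ratio was 0.998. Capitals mark CCAAT or ATTGG, and each sequence runs 5′ to 3′ on the strand of its gene. Meioc is at chr11:102665335-102665634 on the plus strand, Hmmr at chr11:40733388-40733687 on the minus strand, Ube2c at chr2:164769679-164769978 on the plus strand and Lin28a at chr4:134018767-134019066 on the minus strand.
Meioc: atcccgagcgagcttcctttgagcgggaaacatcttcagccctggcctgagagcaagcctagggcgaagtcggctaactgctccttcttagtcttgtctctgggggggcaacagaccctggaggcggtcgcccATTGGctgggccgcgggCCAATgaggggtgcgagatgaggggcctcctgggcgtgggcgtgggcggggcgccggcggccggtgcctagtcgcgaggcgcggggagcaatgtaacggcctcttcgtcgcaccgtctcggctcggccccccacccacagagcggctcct
Hmmr: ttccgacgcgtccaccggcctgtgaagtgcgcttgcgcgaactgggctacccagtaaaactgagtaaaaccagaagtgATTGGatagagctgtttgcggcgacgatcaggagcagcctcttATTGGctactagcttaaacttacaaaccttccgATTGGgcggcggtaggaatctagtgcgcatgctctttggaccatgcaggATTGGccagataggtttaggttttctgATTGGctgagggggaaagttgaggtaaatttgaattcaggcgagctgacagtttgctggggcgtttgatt
Ube2c: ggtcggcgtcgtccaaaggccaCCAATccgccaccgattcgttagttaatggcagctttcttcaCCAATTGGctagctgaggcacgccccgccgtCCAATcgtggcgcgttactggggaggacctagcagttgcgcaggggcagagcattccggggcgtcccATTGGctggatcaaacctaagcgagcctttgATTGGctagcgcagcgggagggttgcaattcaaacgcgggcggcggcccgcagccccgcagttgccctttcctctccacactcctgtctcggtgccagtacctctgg
Lin28a: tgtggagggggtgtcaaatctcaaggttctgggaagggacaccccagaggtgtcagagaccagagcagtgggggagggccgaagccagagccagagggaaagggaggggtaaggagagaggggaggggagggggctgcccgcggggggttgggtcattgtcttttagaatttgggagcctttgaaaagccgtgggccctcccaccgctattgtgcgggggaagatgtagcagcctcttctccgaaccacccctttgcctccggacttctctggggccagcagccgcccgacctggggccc

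Meioc held 2 matches, whose centres lie 115 and 98 bases upstream of the start site, and its ratio of scATAC-seq values was 0.329. Hmmr held 5 matches and had a ratio of 0.565, and Ube2c held 6 and had a ratio of 0.571. In Ube2c a CCAAT and an ATTGG overlap. A match describes the sequence only and is not evidence of binding. Single genes of the lists also went against the contrast: Stra8 held 4 matches at a ratio of 1.03 and Eomes 2 at 1.20, while Sycp1 (0.626) and Nusap1 (0.635) held none.

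The ratio fell with the number of matches. Over 10830 genes with 1 window each and signal, the median ratio was 0.948 for 6644 genes without a match, 0.923 for 2635 with 1, 0.831 for 1026 with 2 and 0.738 for 525 with 3 or more. The share at least 1.5-fold lower rose from 3.21 to 5.35, 10.9 and 30.7%. The ratio also fell with the control signal, which is higher at promoters with more matches. Among genes without a match the median log2 ratio went from 0.44 in the lowest of 10 bins of control signal to -0.28 in the highest. Within these bins, genes with 2 or more matches had a median log2 ratio 0.14 under that of genes without, with differences from -0.22 to -0.02, below 0 in 10 of 10 bins. Without the bins the difference was -0.26.

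Against the other control columns the difference within bins was -0.14 for Nfya-CKO over differentiating SpG, below 0 in 8 of 10 bins, and -0.11 for Nfya-CKO SpG over pL, below 0 in 9 of 10. Pairs of columns without Nfya-CKO SpG were closer to 0. The mean difference was 0.00 for differentiating over undifferentiated SpG, -0.03 for pL over undifferentiated SpG, -0.01 for eL/L/Z over undifferentiated SpG and -0.00 for the somatic cells over Sertoli cells, of which the first, second and last were below 0 in 5 of 10 bins. Without bins, the ratio of differentiating to undifferentiated SpG rose with the number of matches, to 1.25 at 3 or more, where that of Nfya-CKO SpG fell. For the GC box GGGCGG, read on both strands as a second motif of promoters, the difference in Nfya-CKO SpG was -0.18 without bins and -0.01 within them, below 0 in 4 of 10. Against pL the GC box difference within bins was -0.08, below 0 in 7 of 10. No test between motifs or columns was made, since each column is 1 pooled profile.

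**Figure D5:**
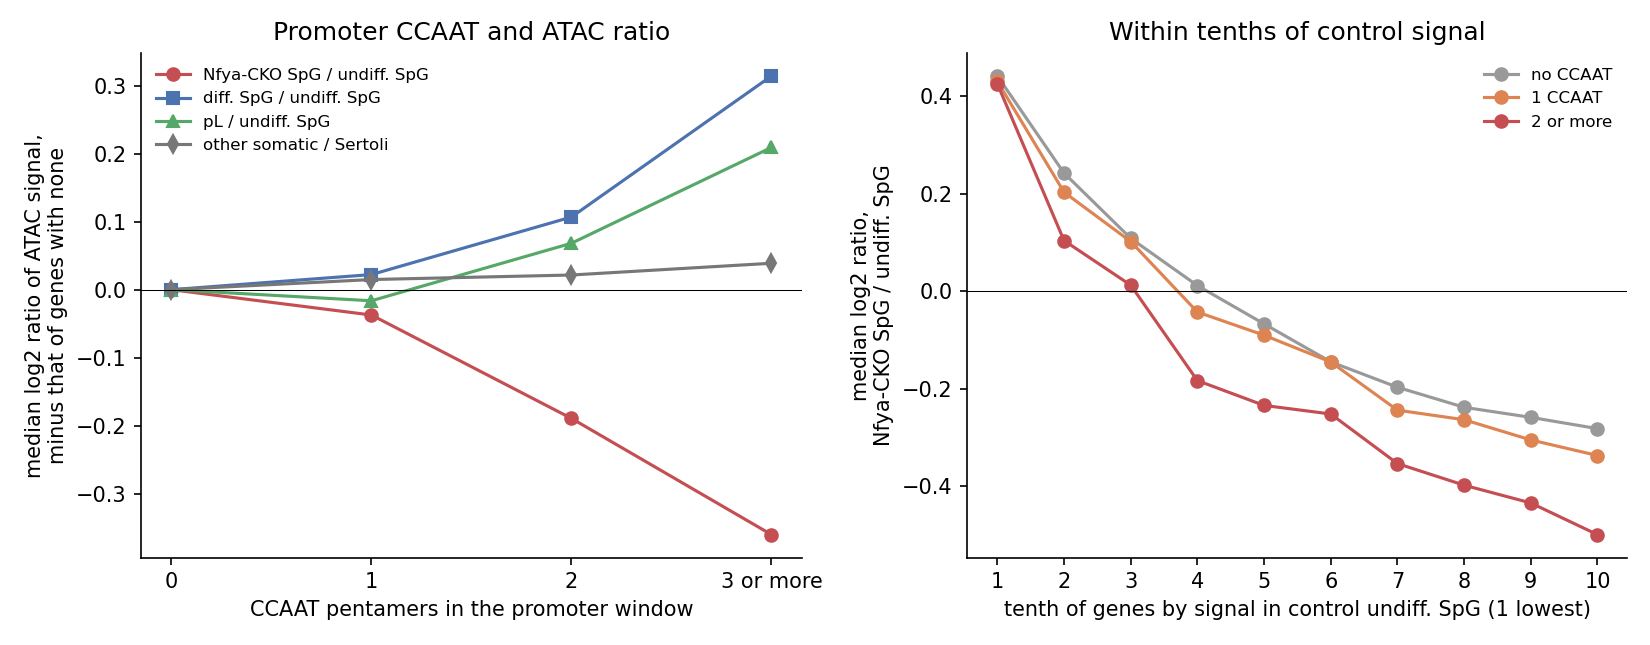
Left, median log2 ratio of scATAC-seq signal by number of CCAAT matches (x axis), minus that of genes with none, for Nfya-CKO over undifferentiated SpG and for 3 pairs of control or somatic columns, of which only the first lies under 0 at 2 or more matches. Right, median log2 ratio of Nfya-CKO over undifferentiated SpG in 10 bins of control signal (x axis), where genes with 2 or more matches lie under those with none in 10 of 10 bins.

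Position and RNA were read in the same genes. Among genes with 1 match the median ratio was lowest, at 0.888, where the match was centred in the last 50 bases before the start site (530 genes), 0.914 where it was centred in the 50 bases before those (708 genes) and 0.944 at the far end of the window (367 genes). The median control signal moved with position, at 31.3, 28.2 and 25.2, and its part in the ratio was not tested. RNA at least 2-fold lower than in undifferentiated SpG was found for 2.22% of genes without a match, 2.83% with 1, 5.76% with 2 and 9.39% with 3 or more, and the median log2 difference went from 0.08 to 0.04, -0.08 and -0.19. For pL over undifferentiated SpG the shares were 6.57, 6.35, 7.20 and 2.84%. Of the G2 and M genes with a single window 14 of 21 had 2 or more matches, Cks2 and Cks1b with 4 each and Ube2c with 6 among them, and Cenpf, whose RNA was higher, with 2. Of the stem genes with a single window 4 of 21 had 2 or more, Foxo1 with 3 and Id4 with 2 among them. Of the 10830 single-window genes with signal 14.3% had 2 or more.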

How the data were processed

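Nuclei of whole testes from 5 conditions were measured, with 1 library per condition and assay. The authors aligned RNA reads with STAR 2.7.10b and chromatin fragments with BWA 0.7.12 to mm10, collapsed UMI duplicates, and filtered cells with Seurat 5.2.1 (at least 500 genes, under 5% mitochondrial UMIs) and ArchR 1.0.3 (stated limits of 1000 fragments and a TSS enrichment of 4, the latter not met by all deposited Nfya-CKO cells), with doublets removed by callers. They deposited per cell the count of UMIs or fragments, the percent of mitochondrial UMIs, the TSS enrichment and nucleosome ratio and the fraction of reads in promoters, with the names they gave to clusters. They also deposited pooled means per population on a natural log scale. The deposited doublet score was not used.

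Values were turned back to sums of 10000 (28125 genes, RNA) and 1000000 (scATAC-seq, mitochondrial genes included in the sum, of which 30657 nuclear genes were used) in Python 3.11.15 (pandas 2.3.3, numpy 2.4.6, scipy 1.17.1) and plotted with matplotlib 3.10.9. RNA differences are log2 ratios of values plus 0.1 for genes of at least 0.05 in mean, counted past 2-fold, which understates changes of low genes. Counts of genes are by size alone. The counting was tested on simulated data. As an alternative, the median ratio of somatic genes times the somatic column was subtracted, whatever the source of those transcripts.

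The promoter table held 32851 windows of 27025 symbols, 22862 with 1 window, of which 16189 were in the scATAC-seq matrix and 10830 had signal.

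Named genes are members of the lists, the 10 furthest above and below the control range (0.5 or more on the higher side, those above also 2-fold over the somatic cells), and promoters with a control signal above the median, picked by ratio and CCAAT number. The population and lists were chosen with earlier results of these data known. Foxf1, Egr4 and Ptma were chosen after their values were seen. Intervals are exact Clopper-Pearson and cover counting error only.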

Additional observations from a re-analysis of the deposited data

How the results depend on the processing

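Each condition was 1 library, so no result has a replicate check. Depth limits RNA values near 0.01 per 10000. Of 106 alternative values of 28 results, 65 were counted as unmoved, 39 moved and 2 reversed. Unmoved means within 1.5-fold for counts and list medians, 0.05 for rho, 0.10 on the log2 scale for CCAAT and the interval for shares, a wide limit for lists: with a pseudocount of 1 the p53 median was 0.13 and the pachytene median -0.26, where 0.55 and -0.82 were reported. The alternatives that leave out or correct for shared barcodes were chosen after seeing the data. No paired analysis was possible because the groups have 1 library each and no test was run. The cause of the moves below was not tested.

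The RNA share of SpG was 18.6% among cells of at least 1000 genes and 19.6% without smaller barcode entries, and the scATAC-seq share 28.8% from 3000 fragments and 21.4% from a TSS enrichment of 4. Among the 2000 most variable genes the lead of undifferentiated SpG in rho was -0.0153 over pL, which reversed the order, and 0.240 over differentiating SpG. With the shared barcodes taken out of the latter it was 0.198. For genes of at least 0.5 the lead over pL was 0.10. In scATAC-seq the lead over pL was 0.116 for genes of at least 10, and over differentiating SpG 0.174 for these and 0.125 for the 2000 most variable.

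With pseudocounts of 0.01 and 1 the genes higher than undifferentiated SpG were 1564 and 43 and those lower 1041 and 45, and with the somatic share subtracted 294 and 1411. Against differentiating SpG those higher were 2358 and 65, 523 with subtraction and 1813 with shared barcodes taken out, and those lower 132 with a pseudocount of 1, 943 from a mean of 0.2 and 2592 with subtraction. The genes above the control range were 169 and 8, and 184 without the differentiating SpG and ES columns, and those below 191 and 3. Without these columns the pL stage genes were at -1.79 on the log2 scale, and with a pseudocount of 1 the RS stage genes at -2.05. Against differentiating SpG the stem list reversed to 1.16, and the meiotic and pachytene lists were at -0.74 and -2.45.

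The CCAAT difference was -0.51 against differentiating SpG, where the GC box gave -0.53, and -0.14 within bins of control signal. Over pL without bins CCAAT gave -0.40 and the GC box -0.48. In scATAC-seq, a pseudocount of 5 gave 379 higher and 602 lower genes, scaling without mitochondrial DNA 2976 and 568, and a signal of at least 20 gave 147 higher.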

Other observations

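Lists not described above gave these values, where 4.76% of all genes were at least 2-fold higher than in undifferentiated SpG and 3.4% lower. Of 17 retinoic acid genes tested, 4 were at least 2-fold higher in Nfya-CKO than in control undifferentiated SpG and 1 lower, with a median log2 difference of 0.20, which turned to -0.68 after subtraction of the somatic share. Among those higher were Crabp1, Dhrs3 (0.311 against 0.0484 per 10000) and Aldh1a1, a maker of retinoic acid (3.29 against 0.607, with 18.5 in the somatic cells). Of 6 endothelial genes tested 2 were higher, led by the receptor Tek at 0.920 against 0.0591 and 0.874 in the somatic cells. Of 7 macrophage genes tested 1 was higher, Cd74 at 0.752 against 0.0289 and 1.84 in the somatic cells.

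RNA differences from undifferentiated SpG varied with gene span. The share at least 2-fold higher was 7.54% for genes under 10 kb, 3.09% for those of 30 to 100 kb and 8.37% for those over 300 kb, and the share lower 5.49, 2.17 and 2.53%. A RefSeq span was found for 93.2% of the genes tested.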
